A study of Macaca mulatta with 28 samples.

Results

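Gene and exon levels in the central amygdala (CeA) were compared between 2 cohorts of heavily drinking male rhesus macaques, cohort 5 and cohort 7a. The animals were chosen by their labels alone: every heavy drinker (HD) or very heavy drinker (VHD) of these cohorts, 11 of the 28 animals in the series. Cohort 5 gave 7 animals, 3 HD and 4 VHD, with a cohort mean age of 5.63 years when ethanol induction began and 7.15 years after open access. Cohort 7a gave 4 animals, 2 HD and 2 VHD, with cohort mean ages of 4.18 and 5.7 years. HD animals took at least 3 g/kg of ethanol on at least 20% of days, and for VHD animals the daily mean was above 3 g/kg and at least 10% of open-access days were above 4 g/kg. All 28 animals went through about 90 days of induction with 4% (w/v) ethanol, followed by more than 12 months of free access for 22 hours a day, so no animal was free of ethanol. All were housed singly. All 7 cohort 5 animals of the series were heavier drinkers, whereas cohort 7a also held 4 lighter drinkers (low or binge). Cohort, age and any handling shared by a whole cohort cannot be told apart. Replicate numbers below only name animals within a group. Each animal gave 1 library, so p-values for genes and for single exons measure the spread between animals. The exon use test described below also pools the exons of a gene.

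The CeA is the output nucleus of the amygdala and is built mostly of GABAergic projection neurons and local inhibitory neurons. These neurons are sorted by the peptides they carry, among them somatostatin, enkephalin, dynorphin, neurotensin, tachykinins and corticotropin-releasing hormone. It borders on the basolateral and cortical amygdala, whose main neurons are glutamatergic, on the striatum, whose medium spiny neurons are GABAergic, and on the basal forebrain, which holds large cholinergic neurons. The sample was a block holding the CeA, located by anatomical landmarks in brains sectioned by each animal's own MRI, so RNA of these neighbours could be included.

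Values are normalized reads, the reads over a gene's exons scaled by 1 upper-quartile factor per library, and are not divided by gene length. Libraries held 10588509 to 23705301 reads in cohort 5 (median 11776628) and 18166087 to 23519319 in cohort 7a (median 19612198), so cohort 7a was sequenced more deeply. Pairwise correlations of log2 values across genes ranged from 0.928 to 0.988 over the 55 pairs of libraries. Markers of the CeA were present: PRKCD, a kinase that marks 1 class of CeA neurons, stood at 541 ± 282 normalized reads in cohort 5 (SD, n = 7) and 483 ± 158 in cohort 7a (SD, n = 4). CRH, which encodes corticotropin-releasing hormone, was low in both (50.4 ± 32.4 and 51.6 ± 16.2).

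One cohort 7a library stood apart from the other 3. CHAT, the enzyme that makes acetylcholine, read 1450 normalized reads in cohort 7a replicate 2 and 0.822, 0 and 0.823 in replicates 1, 3 and 4, the other 3 all under the level of 3 reads. In cohort 5 it ran from 12.4 to 1687, with replicates 3 and 6 (1687 and 1566) close to cohort 7a replicate 2. TBR1, a transcription factor of glutamatergic neurons, read 118 in cohort 7a replicate 2 and 508, 694 and 611 in the others, against 0 to 199 in cohort 5. AVP, the vasopressin gene, read 21750 in cohort 7a replicate 2 and between 3.29 and 19.5 in all of the other 10 libraries. This VHD animal therefore carried markers of a neighbouring region that the other cohort 7a animals lacked, and the counts of genes and exons that passed a threshold, and those of the lists described, are given with and without it.

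**Figure D1:**
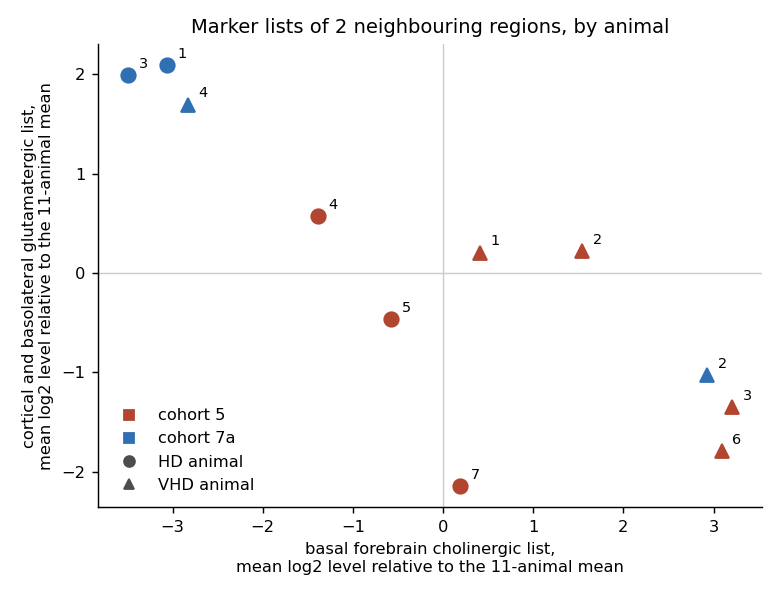
Mean log2 level of the basal forebrain cholinergic list (horizontal axis) against that of the cortical and basolateral glutamatergic list (vertical axis), each relative to the mean of the 11 animals; numbers are replicate numbers, colours cohorts, circles HD and triangles VHD animals. Cohort 7a replicates 1, 3 and 4 lie at the upper left (cholinergic score -3.06, -3.49 and -2.83), and replicate 2 lies at 2.93 beside cohort 5 replicates 3 and 6 (3.21 and 3.09).

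No gene passed the threshold of 0.05 (adjusted p, limma, all 12797 genes tested) between cohorts with category as a term: 0 of 12797 (0%), with a lowest adjusted p of 0.0688 and 20 genes under 0.1. Unadjusted p fell under 0.05 for 2215 genes (17.3%), of which 1063 stood higher in cohort 5 (8.31%) and 1152 lower (9%). Whatever their p, 6743 of the 12797 stood higher and 6054 lower. The groups did not overlap in 213 genes (1.66%), 107 with every cohort 5 animal above (0.836%) and 106 with every cohort 5 animal below (0.828%). edgeR on the recovered reads also called 0 genes, with 2228 at an unadjusted p under 0.05, whereas DESeq2 called 623. Without cohort 7a replicate 2, limma called 1066 genes (8.33%), 443 higher in cohort 5 (3.46%) and 623 lower (4.87%). In 930 of them replicate 2 lay on the cohort 5 side of the midpoint between cohort 5 and the other 3 cohort 7a animals. In limma these genes passed only with that animal left out, so its side is partly set by their choice. No share over all tested genes stands beside the 930. Leaving out cohort 5 replicate 3, the most cholinergic-rich library of its cohort, gave 26 genes, leaving out cohort 5 replicate 2 gave 2, and leaving out any other single animal gave 0. In 85.3% of genes the 95% interval of the difference lay within 2-fold in either direction.

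Genes for making and packaging GABA headed the comparison, all higher in cohort 5, but none passed the threshold with all 11 animals. GAD1, a glutamate decarboxylase that makes GABA (chromosome 2b, 57719871 to 57765875, 17 exons listed), read 7722, 8140, 6784, 8533, 8755, 6631 and 8576 normalized reads in cohort 5 replicates 1 to 7 and 4183, 5582, 4822 and 4402 in cohort 7a replicates 1 to 4. Every cohort 5 animal stood above every cohort 7a animal, with a fold of 1.67 (95% interval 1.43 to 1.95, adjusted p = 0.0688, limma). GAD2, the second glutamate decarboxylase (chromosome 10, 26261832 to 26351168, 17 exons), read 7936, 7338, 5325, 7591, 8077, 5698 and 9051 against 2528, 4484, 2719 and 2764. The groups again did not overlap (fold 2.37, 1.80 to 3.11, adjusted p = 0.0688), and cohort 7a replicate 2 was the highest of its group. SLC32A1, the transporter that loads GABA into vesicles (chromosome 15, 25317170 to 25322025), read 1756, 1673, 1124, 1880, 2129, 1508 and 2350 against 457, 1106, 611 and 764, a narrow gap between cohort 5 replicate 3 and cohort 7a replicate 2 (fold 2.49, 1.73 to 3.57, adjusted p = 0.0931).

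DLX6, a homeobox factor of forebrain GABAergic neurons (chromosome 7), read 335, 244, 159, 311, 463, 214 and 502 normalized reads in cohort 5 and 36.2, 141, 51.6 and 64.2 in cohort 7a. Its fold was 4.59 (2.57 to 8.18, adjusted p = 0.0910), without overlap. Its neighbour DLX5 read 98.7 ± 28.98 (SD, n = 7) against 39.7 ± 27.5 (SD, n = 4), with cohort 7a replicate 2 at 80.4 inside the cohort 5 range (fold 2.75, adjusted p = 0.124, limma). Of the 13 tested genes of the GABAergic list, 9 stood higher and 4 lower in cohort 5, 6 higher and 1 lower at an unadjusted p under 0.05 (8.31% and 9% of all genes), and 4 lay wholly above (0.836% of all genes). The list's median log2 difference was 0.31, against 0.01 over all genes tested, and 0.54 without cohort 7a replicate 2, where 7 of 13 passed the adjusted threshold against 8.33% of all genes, 6 higher and PVALB lower (adjusted p = 0.0166, limma). GAD1 was then 1.81-fold, GAD2 2.79-fold, SLC32A1 3.00-fold and DLX6 6.38-fold higher (adjusted p = 0.00201, 0.00107, 0.00481 and 0.00233, limma).

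Other members of the list differed little or the other way. LHX6, a factor of interneurons derived from the medial ganglionic eminence, had a ratio of 1.03 (0.723 to 1.45). PVALB, the calcium buffer of fast-spiking interneurons, was low in cohort 5 (10.4 to 31.6) and read 172, 10.1, 114 and 43.6 in cohort 7a, so that the omitted replicate 2 had the lowest value of all 11 (ratio 0.350, 0.139 to 0.883, adjusted p = 0.242, limma). The higher GAD1, GAD2 and SLC32A1 levels were thus not shared by every gene of GABAergic neurons. In a bulk sample, fewer cells of a type and less RNA per cell cannot be told apart.

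**Figure D2:**
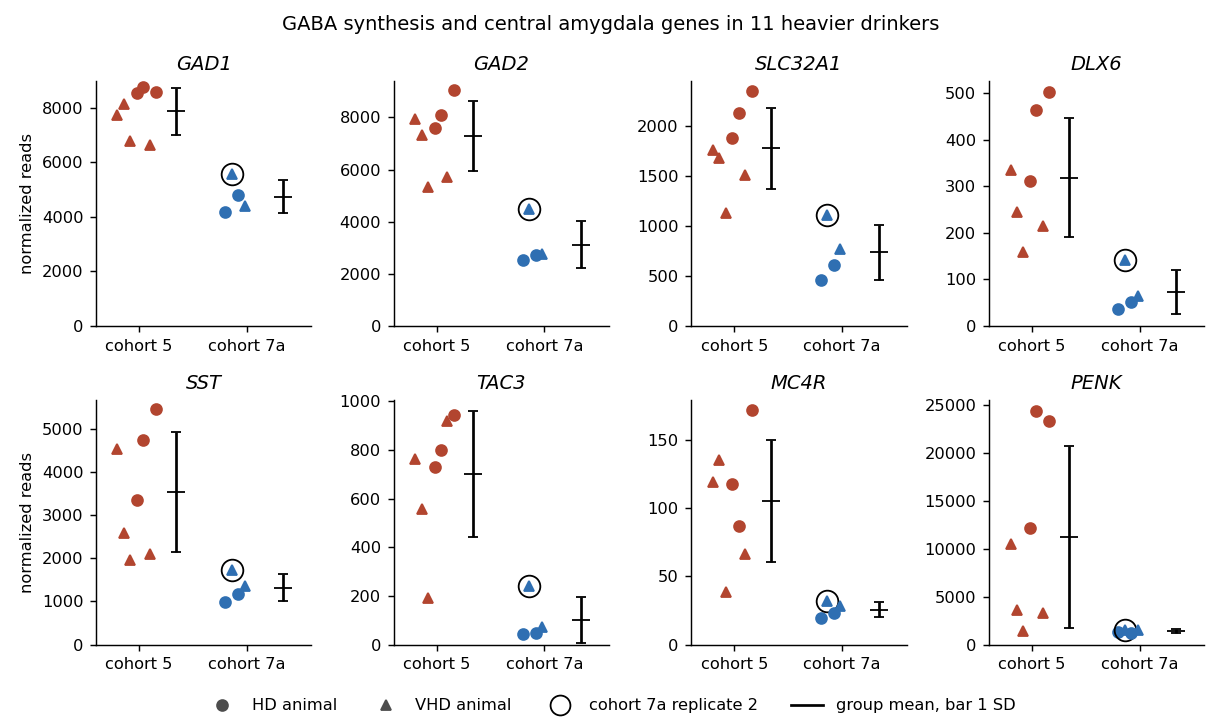
Normalized reads per animal (vertical axes, from 0) of 8 genes of GABA synthesis, GABAergic neurons and CeA peptides in 7 cohort 5 and 4 cohort 7a animals; circles are HD and triangles VHD animals, the ring marks cohort 7a replicate 2, and the black bar is the group mean with 1 SD. GAD1, GAD2, SLC32A1, DLX6, SST and MC4R do not overlap between cohorts, and the ringed animal is the highest of cohort 7a in each of them.

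Peptide genes of the CeA split in both directions. TAC3, the precursor of neurokinin B, read 761, 556, 191, 730, 800, 920 and 944 normalized reads in cohort 5 and 45.2, 240, 46.8 and 71.6 in cohort 7a. Only cohort 5 replicate 3 and cohort 7a replicate 2 overlapped (fold 8.00, 3.70 to 17.3, adjusted p = 0.0798, limma). SST, somatostatin, read 4533, 2578, 1957, 3350, 4733, 2100 and 5457 against 988, 1719, 1178 and 1364, without overlap (fold 2.59, 1.70 to 3.96, adjusted p = 0.109). PENK, the enkephalin precursor, spanned 1405 to 24440 in cohort 5 (median 10510) and 1161 to 1561 in cohort 7a. The lowest cohort 5 animal, replicate 3, lay inside the cohort 7a range, and the 3 HD animals (12160, 24440 and 23320) were highest (fold 5.78, 2.43 to 13.7, adjusted p = 0.122). NTS, neurotensin, was 3.87-fold (2.00 to 7.48, adjusted p = 0.119) and TAC1, the precursor of substance P, 2.27-fold higher (1.30 to 3.94, adjusted p = 0.163).

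CCK, cholecystokinin, stood lower in cohort 5 (465 ± 250, SD, n = 7, against 1182 ± 480, SD, n = 4), with a ratio of 0.378 (0.205 to 0.697, adjusted p = 0.153, limma). CRH had a ratio of 0.904 (0.563 to 1.45), PDYN, the dynorphin precursor, 1.12 (0.680 to 1.85) and NPY, neuropeptide Y, 0.743 (0.494 to 1.12), so each interval still held a 1.5-fold difference in at least 1 direction. Of 18 tested peptide genes, 9 stood higher and 9 lower, 6 and 2 at an unadjusted p under 0.05 (8.31% and 9% of all genes). The median log2 difference was 0.05, and it was 0.36 without cohort 7a replicate 2. In that fit 6 of 18 passed the adjusted threshold (8.33% of all genes). Of these, TAC3 was 12.3-fold, SST 3.03-fold, NTS 5.79-fold, PENK 7.32-fold and TAC1 3.00-fold higher. CCK was lower, with a ratio of 0.273 (adjusted p = 0.0133, limma).

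Receptors and identity genes of the CeA also went both ways. MC4R, the melanocortin receptor, read 119, 135, 38.2, 117, 86.9, 66.5 and 172 normalized reads in cohort 5 and 19.7, 31.8, 22.7 and 28.0 in cohort 7a, without overlap (fold 3.72, 2.18 to 6.37, adjusted p = 0.101, limma). ISL1, a LIM homeobox factor of striatal and cholinergic neurons, read 95.01 to 205 in cohort 5, but 2.46, 2.06 and 3.29 in cohort 7a replicates 1, 3 and 4 and 150 in replicate 2. The fold was 16.5 (4.69 to 57.9, adjusted p = 0.112) and 43.8 without that animal (adjusted p = 4.81e-06). These 3 low values lay near the level of 3 reads, so the size of these fitted folds depends on the pseudocount. NTSR1, the neurotensin receptor, MEIS2, a homeobox factor of striatal and CeA neurons, and DRD2, the D2 dopamine receptor, were 3.31-fold, 2.17-fold and 3.88-fold higher (adjusted p = 0.123, 0.146 and 0.148).

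NR2F2, a nuclear receptor of the caudal forebrain, stood lower: 921, 1348, 1082, 1466, 911, 1055 and 746 normalized reads in cohort 5 against 2326, 1477, 2409 and 2070 in cohort 7a. The ranges nearly met at cohort 5 replicate 4 and cohort 7a replicate 2 (ratio 0.519, 0.389 to 0.691, adjusted p = 0.109, limma). SSTR1, a somatostatin receptor, and CRHR1, the receptor of corticotropin-releasing hormone, had ratios of 0.340 (0.183 to 0.634) and 0.577 (0.383 to 0.868), with cohort 7a replicate 2 inside the cohort 5 range for both (373 and 121). Of 28 tested genes of this list, 15 stood higher and 13 lower, 6 and 6 at an unadjusted p under 0.05 (8.31% and 9% of all genes). OPRK1, OPRM1, HTR2C, PRKCD and FOXP2, which encode 2 opioid receptors, a serotonin receptor, a kinase and a forkhead factor, had ratios of 0.998, 0.800, 1.04, 1.07 and 1.001. Without cohort 7a replicate 2, 10 of 28 passed the adjusted threshold (8.33% of all genes).

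Markers of neighbouring regions differed alongside these genes. All 11 cholinergic genes stood higher in cohort 5 and 8 did so at an unadjusted p under 0.05 (8.31% of all genes), with a median log2 difference of 2.16. The summed level of the list ran from 1044 to 24532 normalized reads in cohort 5 and from 478 to 17912 in cohort 7a, where the highest value is replicate 2. Without it the median was 3.51 and 10 of 11 passed the adjusted threshold (8.33% of all genes). LHX8, a homeobox factor these neurons need, read 10.7, 4.13 and 7.41 normalized reads in the other 3 cohort 7a animals and 65.3 to 1121 in cohort 5. The defining marker CHAT was near 0 in 3 of 4 cohort 7a animals and in no cohort 5 animal.

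All 13 tested genes of the cortical and basolateral glutamatergic list stood lower in cohort 5, 7 at an unadjusted p under 0.05 (9% of all genes), with a median log2 difference of -2.24. Its summed level was 11105 to 26165 normalized reads in cohort 5 and 13224 to 50370 in cohort 7a. SLC17A6, a vesicular glutamate transporter, read 215, 2391, 1554, 559, 103, 614 and 39.0 against 1805, 2076, 3909 and 3892 (ratio 0.127, 0.0368 to 0.439, adjusted p = 0.149, limma). Cohort 5 replicate 2 exceeded 2 of the 4 cohort 7a animals. MEF2C, a factor of excitatory neurons, read 2013 to 4567 in cohort 5, against 8784, 10550 and 8033 in cohort 7a replicates 1, 3 and 4 and 2601 in replicate 2. Without replicate 2 the list's median was -2.92 and 7 of 13 passed the adjusted threshold (8.33% of all genes). Of 13 tested striatal genes 11 stood higher, 7 at an unadjusted p under 0.05 (8.31% of all genes), with a median log2 difference of 0.55. Among them were RXRG, a retinoid receptor (2.07-fold, adjusted p = 0.109, limma), and ADCY5, the striatal adenylyl cyclase (1.47-fold, adjusted p = 0.148, limma). Without replicate 2 the striatal median was 0.62 and 3 of 13 passed the adjusted threshold (8.33% of all genes).

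The size of the differences was also fitted with these markers as covariates. With the cortical glutamatergic score as a term, GAD1 was 1.59-fold and GAD2 2.07-fold higher (adjusted p = 0.921 for both, limma), and 613 genes had an unadjusted p under 0.05 in place of 2215. With the cholinergic score the folds were 1.598 and 2.15 with 1115 such genes, and with the striatal score 1.51 and 1.83 with 628 such genes. Other genes moved further. With the striatal score PENK went from 5.78-fold to 1.95-fold, SST from 2.59-fold to 1.47-fold, DLX6 from 4.59-fold to 2.48-fold, TAC3 from 8.00-fold to 4.36-fold and MC4R from 3.72-fold to 2.32-fold. With the cholinergic score ISL1 went from 16.5-fold to 5.24-fold, while PENK (6.80-fold) and SST (2.61-fold) stayed above their folds without it. For the cholinergic and cortical scores, 3 of the 4 cohort 7a animals lie at 1 end. For the striatal score all 4, replicate 2 included (-0.303), lie between -0.656 and -0.295, below every cohort 5 animal (lowest -0.252). Cohort and regional marker content therefore cannot be told apart.

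Other genes among the 10 with the smallest p that stood higher in cohort 5 follow. GPC3, a glypican of the cell surface (chromosome X, 127330577 to 127785826, 8 exons), read 232, 123, 157, 230, 279, 186 and 237 normalized reads against 18.9, 95.5, 20.6 and 34.6 (fold 5.70, 3.17 to 10.2, adjusted p = 0.0688, limma). THBD, thrombomodulin, an endothelial cofactor that restrains clotting, read 119 to 234 in cohort 5 and 53.4 to 90.5 in cohort 7a (fold 2.47, 1.84 to 3.32, adjusted p = 0.0688). FERMT1, an integrin adaptor, read 97.3 to 133 against 40.6 to 72.0 (fold 1.97, 1.603 to 2.41, adjusted p = 0.0688). ANKRD34B (672 to 1182 against 188 to 553, fold 3.36) and PCP4L1 (1292 to 1560 against 502 to 1149, fold 1.87) had adjusted p of 0.0698 and 0.0755. In all 5 genes the cohorts did not overlap and cohort 7a replicate 2 was the highest of its group.

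The 10 genes with the smallest p that stood lower included NR2F2, given above. GDPD5, a glycerophosphodiester phosphodiesterase, read 145, 145, 161, 153, 115, 180 and 142 normalized reads in cohort 5 against 341, 219, 375 and 322 in cohort 7a, without overlap (ratio 0.481, 0.376 to 0.615, adjusted p = 0.0688, limma). CCBE1, a secreted matrix protein of lymphatic growth, read 15.9 to 57.8 against 66.2 to 224 (ratio 0.289, adjusted p = 0.0931). KIAA1239 read 151 to 665 against 1070 to 1611 (ratio 0.283, 0.165 to 0.485, adjusted p = 0.101). CACNA1G, a T-type calcium channel, read 479 to 1130 against 1303 to 1600 (ratio 0.544, adjusted p = 0.112). OSBPL3, an oxysterol-binding protein (ratio 0.438), PLCD3, a phospholipase C (0.643), and HHATL (0.517) also did not overlap, whereas TMEM2, a cell-surface hyaluronidase (0.515), and PDE4DIP, a phosphodiesterase anchor (0.704), overlapped. All 20 genes named by smallest p kept their direction under all 29 alternatives, and all 20 passed the adjusted threshold without cohort 7a replicate 2 (8.33% of all genes). The 20 were picked by p in these same animals, so neither count is independent support.

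Among lists of other cell types and pathways, genes of microglia and of interferon response stood mostly higher in cohort 5. Microglial genes stood higher in cohort 5 in 19 of 20 cases, 4 at an unadjusted p under 0.05 (8.31% of all genes), with a median log2 difference of 0.32. Without cohort 7a replicate 2 these were 7 genes and 0.41, and 0 of 20 passed the adjusted threshold. CSF1R, the receptor that microglia need to survive, was 1.32-fold higher (1.05 to 1.66, adjusted p = 0.223, limma). Of 29 genes of interferon response and antigen presentation, 26 stood higher and 5 at an unadjusted p under 0.05 (8.31% of all genes, median 0.36). Without cohort 7a replicate 2 these were 8 genes, and 2 of 29 passed the adjusted threshold (8.33% of all genes). B2M, the light chain of class I molecules, read 3825 ± 590 (SD, n = 7) against 2817 ± 454 (SD, n = 4) (fold 1.34, 1.16 to 1.54, adjusted p = 0.119). Cytosolic ribosomal protein genes stood higher in 31 of 39 cases and 13 did so at an unadjusted p under 0.05 (8.31% of all genes), with a median of 0.11. Without cohort 7a replicate 2 these were 12 genes and 0.16, and 3 of 39 passed the adjusted threshold (8.33% of all genes). RPL30 (fold 1.38) and RPLP1 (fold 1.22) did not overlap (adjusted p = 0.146 and 0.153).

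Myelin genes gave 19 of 22 higher with all 11 animals (median 0.05) and 20 of 22 without cohort 7a replicate 2 (median 0.10). In both fits 0 had an unadjusted p under 0.05. MBP had a ratio of 1.21 (0.845 to 1.72) with all 11 animals. Astrocyte genes gave 12 of 18 higher, 3 at an unadjusted p under 0.05 (8.31% of all genes, median 0.14), with AGT, angiotensinogen, at 1.43-fold (1.204 to 1.69, adjusted p = 0.119, limma) and GFAP, an astrocyte filament protein, at 1.24 (0.825 to 1.88). Leaving out cohort 7a replicate 2, 5 of 18 passed the adjusted threshold (8.33% of all genes), and GFAP was 1.63-fold higher (adjusted p = 0.0343, limma). All 15 pan-neuronal genes stood lower in cohort 5, 5 at an unadjusted p under 0.05 (9% of all genes, median -0.29). Among these 5 was SNAP25, a protein of synaptic vesicle fusion (ratio 0.687, 0.5002 to 0.944, adjusted p = 0.229, limma). Without cohort 7a replicate 2, 9 had an unadjusted p under 0.05 and 2 of 15 passed the adjusted threshold (8.33% of all genes). Very long neuronal genes stood lower in 14 of 18 cases, 8 at an unadjusted p under 0.05 (9% of all genes, median -0.25). Without cohort 7a replicate 2 these were 10, and 4 of 18 passed the adjusted threshold (8.33% of all genes). DLG2, a synaptic scaffold, did not overlap (3985 to 5052 normalized reads against 5229 to 7576, ratio 0.721, adjusted p = 0.119, limma). Over 5 equal groups of all tested genes by summed exon length, the median ran only from 0.004 to 0.026. Summed exon length leaves out introns, so these groups do not sort genes by their span.

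Of 20 glucocorticoid response genes, 14 stood higher, 4 at an unadjusted p under 0.05 (8.31% of all genes), and 0 passed the adjusted threshold without cohort 7a replicate 2. FKBP5, a co-chaperone of the glucocorticoid receptor, read 330 ± 86.9 (SD, n = 7) against 242 ± 87.2 (SD, n = 4), with cohort 7a replicate 2 at 373 (fold 1.34, 1.03 to 1.76, adjusted p = 0.252, limma), and NR3C1, the receptor itself, had a ratio of 1.04 (0.908 to 1.198). Among immediate early genes 14 of 21 stood lower, 4 at an unadjusted p under 0.05 (9% of all genes), among them JUN at 0.693 and ARC at 0.645 (adjusted p = 0.200 and 0.222, limma). Without cohort 7a replicate 2, 2 of 21 passed the adjusted threshold (8.33% of all genes). Of 21 genes of cholesterol synthesis and transport 14 stood lower, 5 at an unadjusted p under 0.05 (9% of all genes). Without cohort 7a replicate 2, 1 of 21 passed the adjusted threshold (8.33% of all genes). HMGCS1, an enzyme of the mevalonate pathway, did not overlap (2802 to 6329 against 6338 to 8113, ratio 0.655, adjusted p = 0.168, limma). Among genes of sex steroids and puberty, CYP19A1, the aromatase that makes estradiol, stood lower (ratio 0.382, 0.206 to 0.706, adjusted p = 0.153, limma) and TAC3 higher. The list as a whole gave 12 of 18 higher (median 0.18), with 4 of 18 past the adjusted threshold without cohort 7a replicate 2 (8.33% of all genes). Lists of heat shock genes, oxidative phosphorylation and GABA-A receptor subunits had 0, 0 and 1 of 18, 30 and 11 genes at an unadjusted p under 0.05, and 0 past the adjusted threshold without cohort 7a replicate 2.

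**Figure D3:**
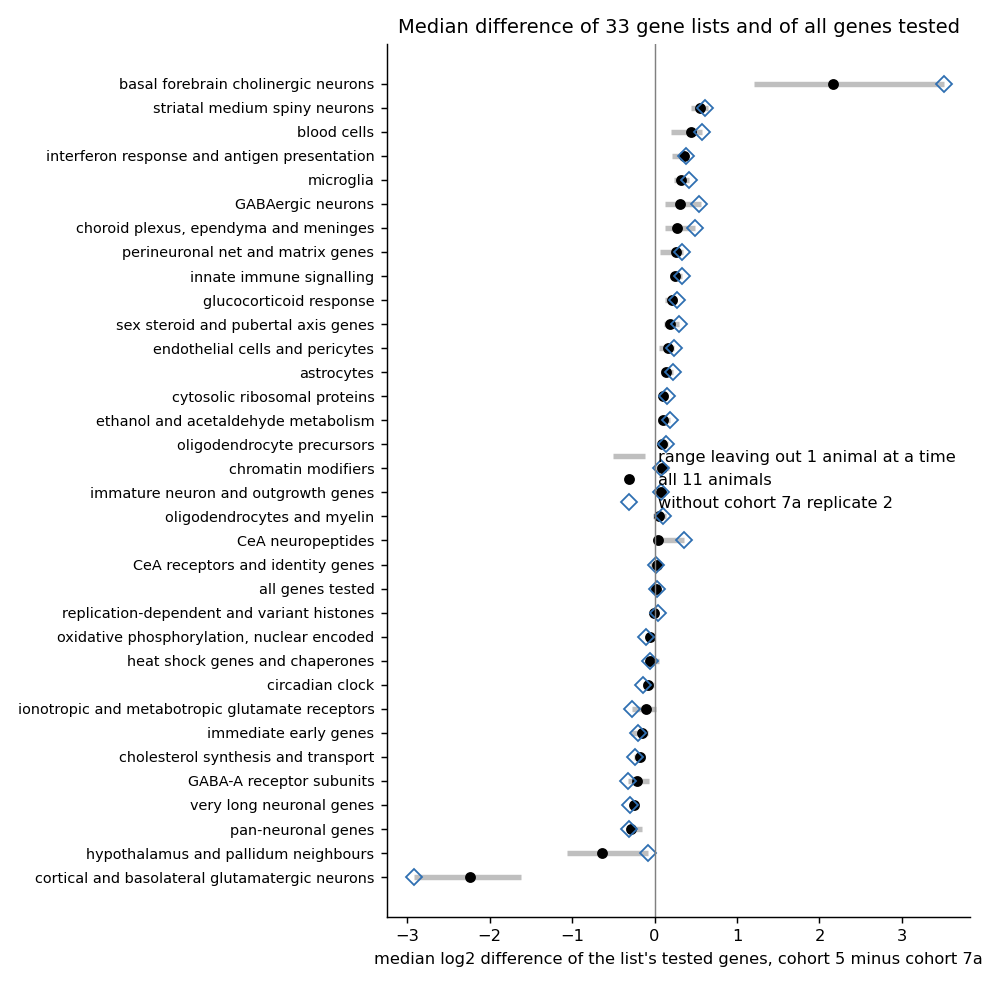
Median log2 difference between cohorts (horizontal axis, above 0 is higher in cohort 5) of the tested genes of each of 33 lists and of all genes; dots use all 11 animals, open diamonds leave out cohort 7a replicate 2, and grey bars span the 11 fits that leave out 1 animal. The cholinergic list (2.16) and the cortical glutamatergic list (-2.24) lie farthest from 0 in opposite directions.

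More genes passed among HD animals alone than among VHD animals alone, but no gene passed the test of that difference. In HD animals alone (3 against 2) 726 genes passed the adjusted threshold (5.67%), and in VHD animals alone (4 against 2) 0 did, with 208 at an unadjusted p under 0.05 (1.63%) against 3494 in HD animals (27.3%). One of the 2 VHD animals of cohort 7a is replicate 2. The interaction of cohort and category gave 0 genes (0%, lowest adjusted p = 0.682, limma) and 894 at an unadjusted p under 0.05 (6.99%), and edgeR gave 0 and 855. Leaving out cohort 7a replicate 2, limma gave 0 and 633. The 5 genes with the smallest interaction p all stood higher in cohort 5 among HD animals. COLQ, which anchors acetylcholinesterase, differed by 3.05 on the log2 scale among HD and by 0.26 among VHD animals. KIF26B, a kinesin family member, differed by 1.01 and 0.05, PLXDC2 by 1.21 and 0.12, SIPA1L2 by 0.95 and -0.15, and TMEM91 by 1.602 and 0.16. GAD2 differed by 1.65 among HD and by 0.88 among VHD animals (adjusted p = 0.696 for the interaction, limma). Without cohort 7a replicate 4, which leaves replicate 2 as the only VHD animal of its cohort, 2 genes passed, AVP and ISL1, the genes in which that animal was already seen to stand apart. This fit takes the spread of the lone animal from the other groups, and the calls add nothing to its values.

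The lighter drinkers of cohort 7a, of the same age and cohort as the 4 heavier ones, stood mostly with cohort 5. For 19 of the 20 genes named by smallest p, the mean of the 4 cohort 7a lighter animals lay on the cohort 5 side of the midpoint between the groups. The 4 lighter animals of cohort 7b did so for 20 and the 7 lighter animals of cohort 4 for 13. Heavier animals of other cohorts did so too: the 1 HD animal of cohort 7b for 20 and the 1 HD animal of cohort 4 for 14. GAD2 read 8035, 4608, 8691 and 7539 normalized reads in the cohort 7a lighter animals, with replicate 2 nearest to the heavier ones. It read 8487 ± 906 (SD, n = 4) in cohort 7b lighter animals, and 2676 to 10540 in cohort 4 lighter animals (median 4666), which span both groups. GDPD5 read 144, 216, 169 and 128 in the cohort 7a lighter animals, against 219 to 375 in the heavier ones. Over the 1063 genes higher in cohort 5 at an unadjusted p under 0.05, the cohort 7a lighter mean lay on the cohort 5 side for 74.2%, and over the 1152 lower genes for 77.5%. For the HD animal of cohort 7b these shares were 90.4% and 91.3%. The shares carry no test and have no share over all tested genes beside them. The genes were picked for their difference from the cohort 7a heavier animals, and drinking category differs between the lighter and heavier animals.

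**Figure D4:**
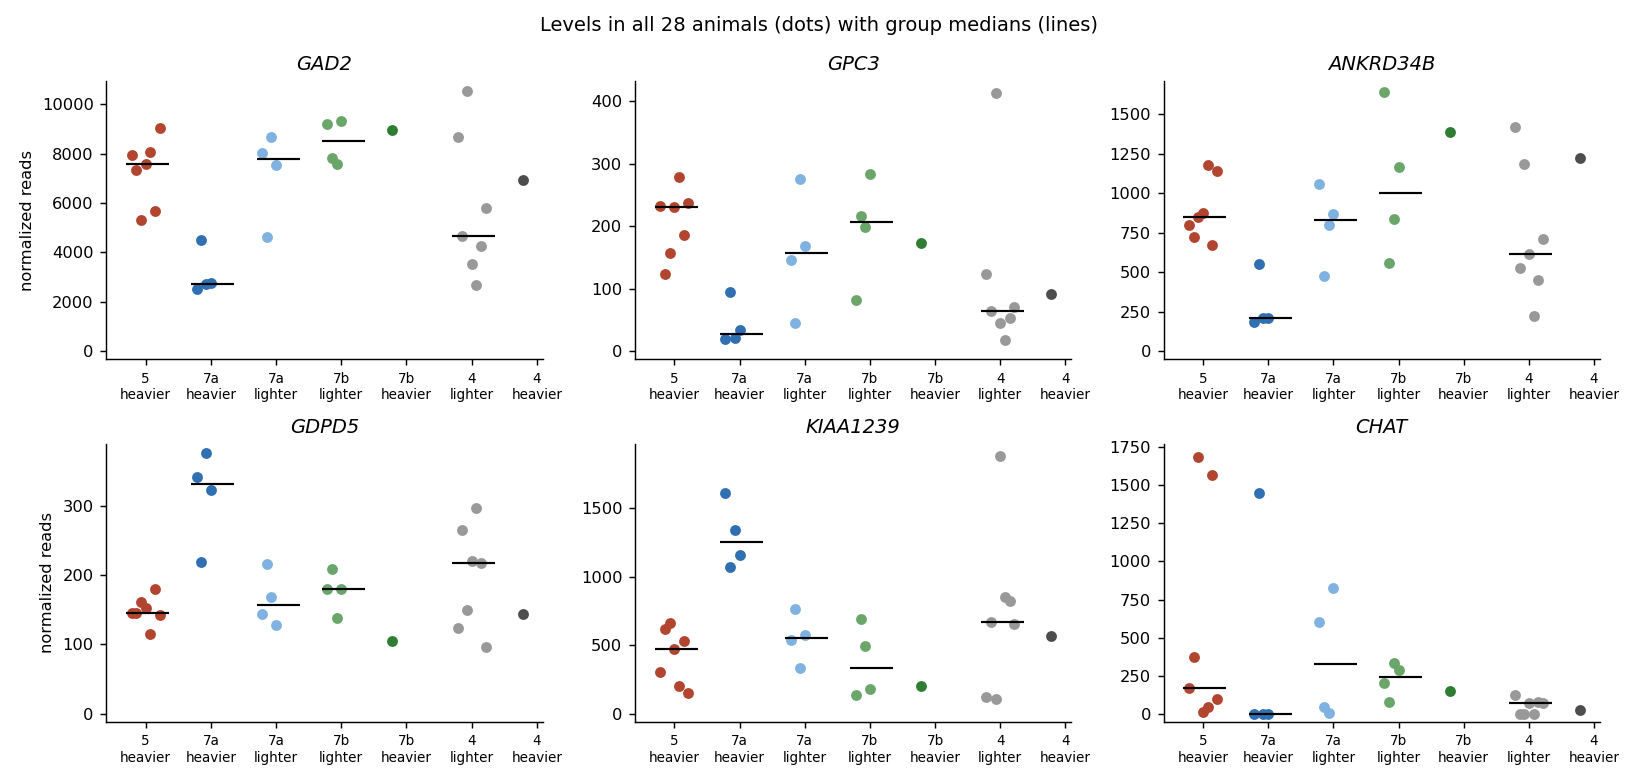
Normalized reads (vertical axes) of 6 genes in all 28 animals, by cohort and by heavier (HD or VHD) or lighter (low or binge) drinking; dots are animals and lines group medians where a group has more than 1 animal. The cohort 7a heavier animals hold the lowest GAD2 and GPC3 medians and the highest GDPD5 and KIAA1239 medians of the groups with more than 1 animal, and the cohort 7a lighter animals lie nearer to cohort 5.

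At the level of exons the comparison passed the threshold in places. Of 108270 exons tested, 30 passed (adjusted p under 0.05, limma; 0.0277%), 25 higher in cohort 5 (0.0231%) and 5 lower (0.00462%), in 16 genes. GAD2 gave 11 of them and GAD1 5. All 17 GAD2 exons stood higher, between 2.06-fold and 2.77-fold, 15 without overlap, and all 17 GAD1 exons stood higher, between 1.55-fold and 2.52-fold, 12 without overlap. The GAD2 exon at chromosome 10, 26275505 to 26275620, rose from 170 ± 44.2 (SD, n = 4) in cohort 7a to 396 ± 51.8 normalized reads (SD, n = 7) in cohort 5, 2.36-fold (adjusted p = 0.0384). The first GAD1 exon by position, at chromosome 2b, 57719871 to 57720151, rose from 87.2 ± 9.54 to 159 ± 9.97, 1.82-fold (adjusted p = 0.0384). These exons repeat the reads of the gene-level comparison.

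Single exons of DOCK10, CAMK1G, THBD, STOM, DACT2, HMGN2, GPC3 and SLC32A1 were also higher in cohort 5. In DOCK10, an activator of small GTPases, all 56 exons stood higher (median 2.15-fold, 29 without overlap), and in CAMK1G, a calcium-dependent kinase, all 12 (median 2.23-fold). The HMGN2 exon (2.74-fold beside a median of 1.26 for its gene) is uncertain, since this chromatin protein has many near-identical copies in primate genomes. The count of exons rested on single animals. It was 7, 11, 73, 5, 1, 1 and 1 without cohort 5 replicates 1 to 7 in turn, and 1, 3020, 1 and 1 without cohort 7a replicates 1 to 4. The other called exons that stood lower lay in TMOD2, a tropomodulin that caps actin filaments (ratio 0.553), and in the cell adhesion gene NRCAM (ratio 0.344), all of whose tested exons stood lower. No GAD1 or GAD2 exon passed without cohort 5 replicate 4, 5, 6 or 7 or without cohort 7a replicate 1, 3 or 4.

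The exon that passed in each of those 11 fits lies in C7orf41 (chromosome 7, 77737507 to 77737629, 123 bases, the second of 3 listed exons). It fell from 704 ± 54.7 normalized reads in cohort 7a (SD, n = 4) to 296 ± 28.2 in cohort 5 (SD, n = 7), a ratio of 0.418 (adjusted p = 0.000485, limma), while another exon of the gene stood 1.49-fold higher. It did not pass in VHD animals alone. Its share of the gene's exon reads was 1.57% to 1.97% in cohort 5 and 3.60% to 3.93% in cohort 7a. Of the other 17 animals, 11 lay on the cohort 5 side of the midpoint and 6 on the cohort 7a side, and 3 of the 4 cohort 7a lighter animals were on the cohort 5 side. Exons of TEX2, DYNC1LI2 and ANKRD13C also took both levels in animals outside the comparison. The TEX2 exon at chromosome 17, 57497202 to 57497334, held 2.32% to 2.97% of its gene's reads in cohort 5 and 4.46% to 4.96% in cohort 7a, with 8 and 9 of the other 17 animals on each side. The exon of DYNC1LI2, a light intermediate chain of dynein, at chromosome 16, 50890536 to 50890671, held 4.80% to 5.56% and 2.48% to 2.87%, with 9 and 8. The ANKRD13C exon at chromosome 1, 69754999 to 69755103, held 2.27% to 3.46% and 4.30% to 5.43%, with 13 and 4. C7orf41, TEX2, DYNC1LI2 and ANKRD13C were not among the 24 genes called for relative exon use below. C7orf41 was called for it under some alternatives: both other pseudocounts, a filter of 50 in 4 libraries, no category term and the Simes test. It was also called without cohort 5 replicate 2, 5 or 7, but not without any other animal or in HD or VHD animals alone.

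Relative exon use, the level of an exon against the rest of its gene, differed in 24 of 9489 genes with at least 3 tested exons (adjusted p under 0.05, diffSplice F test of limma; 0.253%), with 300 at an unadjusted p under 0.05 (3.16%). None of the 24 passed as a whole gene (lowest adjusted p = 0.153). The F test pools the spread over all exons of a gene, so its p-values do not measure the spread between animals alone. PUF60, a splicing factor, led with the exon at chromosome 8, 142820079 to 142820168. That exon read 28.6 ± 11.6 normalized reads in cohort 5 (SD, n = 7) and 6.50 ± 3.42 in cohort 7a (SD, n = 4). The groups overlapped (8 to 46 against 2 to 10). Against its gene the exon was 2.08 higher on the log2 scale (adjusted p = 3.06e-08 for the gene, diffSplice F test). METAP2, a methionine aminopeptidase, followed with the exon at chromosome 12, 94701492 to 94701557, at 1.23% to 2.20% of its gene's reads in cohort 5 and 2.51% to 5.39% in cohort 7a (adjusted p = 3.06e-08). For PSMB4, a proteasome subunit, the exon at chromosome 1, 125485242 to 125485365, held 0.697% to 10.7% in cohort 5 and 10.9% to 11.9% in cohort 7a (adjusted p = 2.05e-07). Here cohort 5 replicate 4 sat at 10.7% with the cohort 7a animals. KPNA3, an importin, and MAPK8IP3, a kinase scaffold, completed the 5 smallest p, with exons of few reads (4.57 ± 9.07 against 19.5 ± 11.1, and 16.4 ± 37.4 against 81.5 ± 56.2) whose groups overlapped.

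For METAP2, 9 of the other 17 animals lay on the cohort 5 side and 8 on the cohort 7a side, for PSMB4 7 and 10, and for SH3PXD2A, a podosome scaffold, 9 and 8. The animals that were high differed from exon to exon. In the 4 cohort 7a lighter animals the number on the cohort 5 side was 2 for METAP2, 1 for PSMB4, 2 for SH3PXD2A, 2 for DYNC1LI2 and 1 for TEX2. Whether sequence variants, mapping or exon choice accompany these separate levels was not tested. With a filter of at least 50 normalized reads in at least 4 libraries, the count of 24 was 19, 8 of them among the 24. Without cohort 7a replicate 2 the count was 32, 17 of them among the 24. It was 37 without cohort 5 replicate 1, 42 without cohort 5 replicate 3 and 11 without cohort 7a replicate 4, 6 of them among the 24. It was 79 in HD and 17 in VHD animals alone, of which 10 and 4 were among the 24.

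**Figure D5:**
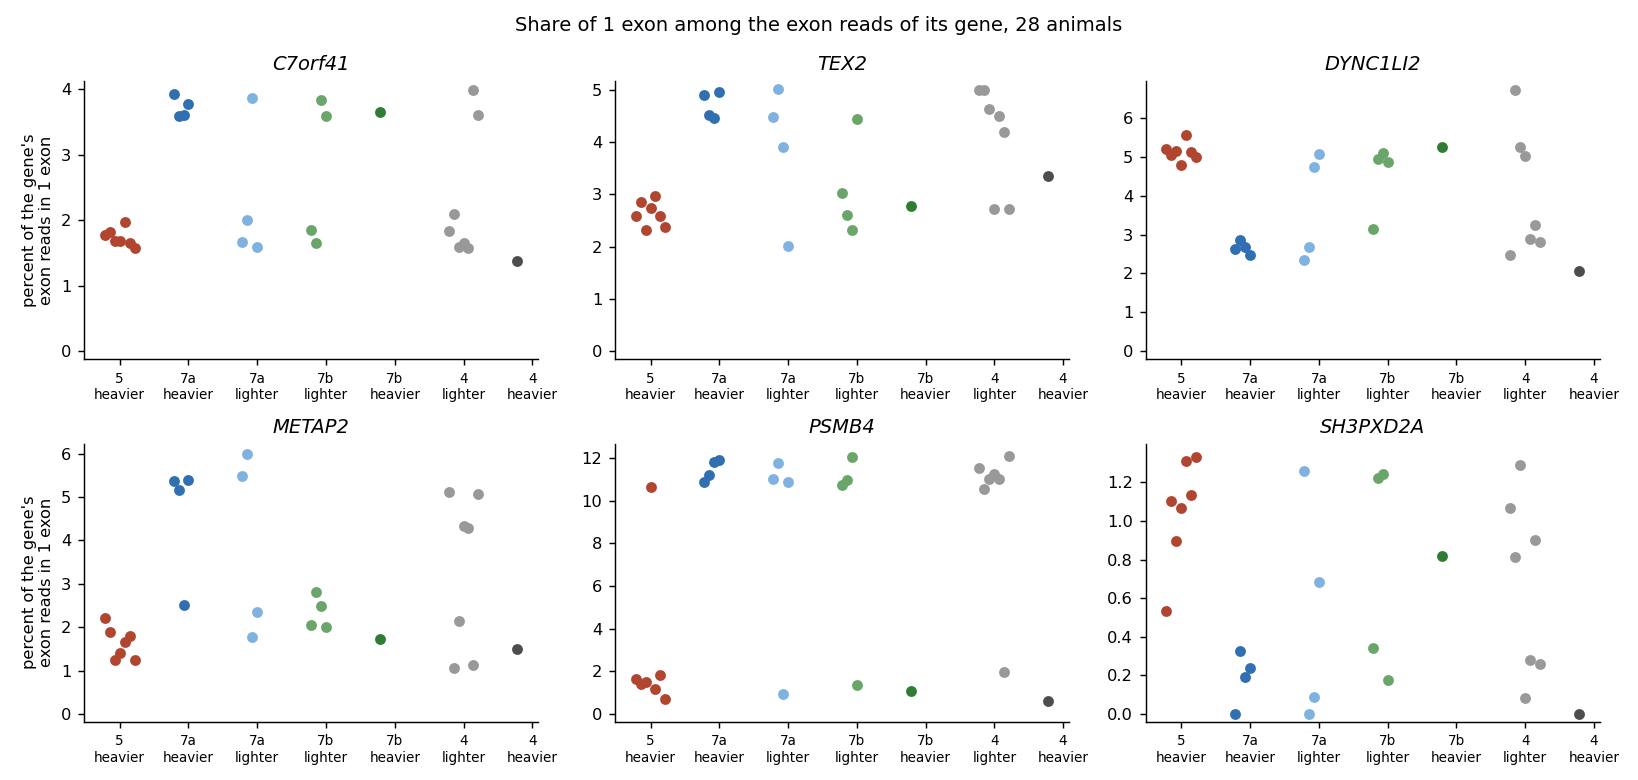
Share of 1 exon among all exon reads of its gene (vertical axes, percent) for 6 genes in all 28 animals, by cohort and by heavier or lighter drinking. METAP2, PSMB4 and SH3PXD2A were among the 24 genes that passed the relative exon use test, and C7orf41, TEX2 and DYNC1LI2 were not. C7orf41 passed it under some alternatives. For C7orf41, TEX2 and DYNC1LI2 the cohort 5 and cohort 7a heavier animals lie in separate ranges, and the other animals of cohorts 7a, 7b and 4 fall on both sides of the midpoint; in PSMB4 cohort 5 replicate 4 lies with cohort 7a.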

How the data were processed

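RNA of central amygdala blocks from 28 animals was sequenced strand-specifically after removal of ribosomal RNA, per the labels' protocols. CASAVA, FastQC, STAR 2.3.0e and edgeR are listed by the submitters' processing notes. The genome build and the gene models behind both tables were not given in the sources used here. Coordinates are those of the exon table. The deposited gene table holds a signal, reads per gene times 1 upper-quartile factor per library, and the deposited exon table a score, the same quantity per exon rounded to whole numbers by the authors. In all gene columns 100% of values lay within 0.02 of a whole multiple of 1 read. Of the gene and of the exon columns, 2 each belong to no sample analysed here and were not used.

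Genes and exons with at least 10 normalized reads in at least 4 of 11 libraries were tested on log2(value + 1) by limma 3.58.1 (R 4.3.3) with a mean-variance trend, cohort and category as terms, and two-sided p-values adjusted by Benjamini-Hochberg over all features. Folds are on this scale and understate changes of low genes. edgeR 4.0.16 (quasi-likelihood) and DESeq2 1.42.0 used recovered reads. Scripts were tested on simulated data. The animals, the 33 gene lists and the rules were chosen with earlier results of these data known. Genes were named by smallest p (10 each way, mean of at least 50 normalized reads; 5 for the interaction), by up to 3 per list, for exons 5 each way and 5 for exon use, plus 11 genes given whatever their p; other genes named were chosen after their values were seen. Some genes that these rules name are not reported here. Alternatives were another pseudocount, filter, scaling, test, covariate or category and each animal left out; equal depth was added after seeing the data.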

Additional observations from a re-analysis of the deposited data

Results flagged for a closer look

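Among the genes named by smallest p or given in any case, 62 groups of 4 or 7 animals were screened for a value far from the rest, and 6 were found (9.68%). The genes share the same animals and 20 were picked by p in these data, so this share cannot be set against a chance rate. All 6 concern cohort 7a replicate 2, the highest of its 4 animals each time. Its CHAT value was 1450 normalized reads beside 0.823 for the next highest animal, its GAD2 value 4484 beside 2764, its TAC3 value 239.5 beside 71.6, its ANKRD34B value 552.8 beside 209, its FKBP5 value 372.7 beside 206 and its MBP value 6459 beside 3905. All 20 genes named by smallest p passed the adjusted threshold when this animal was left out (8.33% of all genes). Being picked by p in these same animals, they give no independent support.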

How the results depend on the processing

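The count of genes with an adjusted p under 0.05 was 0 with all 11 animals and stayed 0 with both other pseudocounts, both other filters, TMM scaling, no category term, edgeR and each of 5 marker scores as a covariate. It was 623 with DESeq2, 4 with the spread taken from all 28 libraries, 1149 with robust priors and array weights, 726 in HD animals alone, 5 after thinning to equal depth (chosen after seeing the data) and 0 to 1066 when 1 animal was left out, the highest without cohort 7a replicate 2. Genes at an unadjusted p under 0.05 numbered 3569 with array weights, 1115, 613, 628 and 1250 with the cholinergic, cortical, striatal and astrocyte covariates, 3494 in HD and 208 in VHD animals alone, and 1204 to 3269 without 1 animal. The interaction gave 0 to 2 genes without 1 animal. Exons gave 1833 in HD and 0 in VHD animals alone, and 1 to 3020 without 1 animal; exon use gave 79 in HD animals alone, 172 with the Simes test and 11 to 42 without 1 animal. Some genes given whatever their p turned direction (log2 differences), and none of them passed under any setting except GFAP without cohort 7a replicate 2 (0.71, adjusted p = 0.0343, limma). The gene CRH was 0.23 in HD animals alone. The gene PDYN was -0.016 with array weights, -0.62 with the striatal covariate, -0.18 in VHD animals alone and -0.077 to 0.33 without 1 animal. The gene NPY was 0.076 and 0.16 with the cholinergic and cortical covariates. The gene NR3C1 was -0.00287 with array weights, -0.074, -0.041 and -0.016 with the cholinergic, cortical and astrocyte covariates and -0.015 to 0.13 without 1 animal. The gene GFAP was -0.16, -0.28, -0.18 and -0.037 with the cholinergic, cortical, striatal and astrocyte covariates and -0.11 in VHD animals alone, and the gene MBP was -0.18 and -0.10 with the cholinergic and cortical covariates. The causes were not tested, apart from the fewer animals in the HD, VHD and left-out fits. No paired analysis was possible because replicate numbers only name animals. Depth limits low genes: 3 reads equal 1.96 to 4.36 normalized reads in cohort 5 and 2.07 to 2.51 in cohort 7a.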
